A study of Mus musculus with 6 samples.

Results

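The *Hox* genes and the Meis and Pbx genes that encode their cofactors were followed through the pharyngeal arch transcriptome of *Pax9*-null embryos. Members were taken by name, as every row of the expression table for a *Hox* gene of the a, b, c or d cluster or for a Meis or Pbx gene. These were 25 of the 14647 genes in the table. They comprised 18 *Hox* genes, 3 Meis genes and 4 Pbx genes. RNA came from the pharyngeal region of wild-type (*Pax9*+/+) and *Pax9*-null (*Pax9*-/-) mouse embryos at embryonic day (E) 9.5, with 3 libraries of each genotype and a C57Bl/6J background. The null allele was constitutive, so *Pax9* was missing in every tissue of the embryo. Each library was made from a single embryo, and embryos were matched by somite number. The dissected block ran from the border of the first and the second arch down to the base of the heart, and held endoderm, ectoderm, mesoderm and neural crest together. Markers of neural tube, heart muscle and blood were also present in these libraries and are given below, so that levels are not those of arch tissue alone.

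*Hox* genes encode homeodomain transcription factors and lie in clusters whose order along the chromosome follows the order of their expression along the body axis. Genes of the low-numbered paralogue groups are switched on earlier and reach further towards the head, and genes of the high-numbered groups stay nearer the tail. In the pharyngeal arches, neural crest and endoderm carry a nested *Hox* code: the first arch is free of *Hox* expression, *Hoxa2* specifies the second, and group 3 genes act in the third and the fourth. Meis and Pbx proteins belong to the TALE class of homeodomain proteins. Pbx proteins bind DNA together with Hox proteins, and Meis proteins bind Pbx and hold it in the nucleus. Pax9 is a paired-box factor of the pharyngeal endoderm.

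Promoter sequences are shown for *Hoxa2*, the most abundant *Hox* gene of the region, and for 3 genes of the Hoxb cluster. Of these, *Hoxb1* stands at the anterior end of the cluster, *Hoxb4* was the most even *Hox* gene between libraries, and *Hoxb8* was the most posterior *Hox* gene listed. Each is the 250 bases before the start site (RefSeq, GRCm38.p6), written from 5′ to 3′ on the strand of the gene. Capitals mark the Meis motif TGACAG or the Pbx-Hox motif TGATNNAT, searched on both strands, and these letters do not overlap one another in the windows shown.
*Hoxa2* promoter, chr6:52164832-52165081, minus strand: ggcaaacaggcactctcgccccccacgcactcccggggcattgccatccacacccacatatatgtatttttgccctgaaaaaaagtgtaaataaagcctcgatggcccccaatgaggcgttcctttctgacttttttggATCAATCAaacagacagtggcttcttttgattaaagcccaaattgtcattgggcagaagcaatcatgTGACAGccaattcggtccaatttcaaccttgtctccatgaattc
*Hoxb1* promoter, chr11:96365508-96365757, plus strand: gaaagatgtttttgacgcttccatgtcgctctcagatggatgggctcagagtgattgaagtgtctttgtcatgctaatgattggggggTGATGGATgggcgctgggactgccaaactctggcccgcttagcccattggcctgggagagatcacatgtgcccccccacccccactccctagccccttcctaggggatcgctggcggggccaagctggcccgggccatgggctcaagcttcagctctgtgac
*Hoxb4* promoter, chr11:96318017-96318266, plus strand: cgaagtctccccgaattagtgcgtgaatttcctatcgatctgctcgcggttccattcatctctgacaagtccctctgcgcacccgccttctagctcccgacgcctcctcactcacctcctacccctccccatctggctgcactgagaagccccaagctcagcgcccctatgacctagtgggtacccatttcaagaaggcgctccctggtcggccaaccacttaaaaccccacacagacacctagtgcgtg
*Hoxb8* promoter, chr11:96281655-96281904, plus strand: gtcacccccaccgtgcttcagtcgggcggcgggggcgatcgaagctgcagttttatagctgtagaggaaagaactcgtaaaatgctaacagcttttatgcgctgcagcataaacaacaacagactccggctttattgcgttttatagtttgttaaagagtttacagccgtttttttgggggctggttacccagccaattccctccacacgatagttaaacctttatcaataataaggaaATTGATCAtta
The *Hoxa2* window held the Meis motif 44 bases before the start site and the Pbx-Hox motif on the minus strand 111 bases before it. A Pbx-Hox motif lay 162 bases before the start of *Hoxb1*, and another 11 bases before that of *Hoxb8*, on the minus strand. *Hoxb4* held neither. RefSeq promoters were matched for 15 of the 25 members, of which 2 held the Meis motif (*Hoxa2* and *Hoxa3*) and 3 the Pbx-Hox motif. Bases just after the start site were found in annotated transcripts of the gene for every matched promoter except that of *Hoxa3*. Among 32851 promoter windows of this length, 15.86% held the Meis motif and 7.68% the Pbx-Hox motif. A match of letters is a description and not a binding site. Promoters of *Hoxb5*, *Hoxb6* and *Hoxb7* were not among those matched.

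The effective size of the libraries was worked out from the deposited values. It ran from 11509904 to 11728253 reads in *Pax9*-null and from 12352676 to 12692325 reads in wild-type libraries. The sizes by which levels were divided thus did not overlap between genotypes. *Pax9* was lower in all 3 *Pax9*-null libraries (log2 fold change −1.32, limma adjusted *P*=0.0155). All 10 pharyngeal endoderm markers and all 9 neural crest mesenchyme markers on the lists were present, with summed levels of 89.0 to 113.8 and 90.6 to 108.5 RPKM. Of 9 markers of brain anterior to the hindbrain, 3 were listed, and they summed to at most 3.38 RPKM. *Otx2*, a forebrain and midbrain gene among them, was called higher in *Pax9*-null embryos, at 0.60, 0.65 and 0.34 against −0.089, −0.56 and −0.077 log2 RPKM (log2 fold change 0.77, limma adjusted *P*=0.0583). *Lhx2* was highest in wild-type replicate 1 (1.03 log2 RPKM). None of 4 liver markers and only *Sox17* of 4 lung and gut markers was listed. Some libraries stood apart. The 8 cardiomyocyte markers summed to 75.6 RPKM in wild-type replicate 3 and to between 1213 and 1605 RPKM in the other libraries. The neuronal gene *Tubb3* was also highest there (6.88 log2 RPKM, against 5.30 to 6.04), and carried most of the sum of the 7 listed neural tube markers (154.2 RPKM, against 66.3 to 95.5). The other 6 of these, *Sox1*, *Sox3*, *Pax6*, *Olig2*, *Dbx1* and *Neurog2*, were all lowest in wild-type replicate 1, where *Olig2* was at −0.52 log2 RPKM against 0.47 to 0.92 elsewhere. The 8 erythroid markers summed to 5006 and 4554 RPKM in *Pax9*-null replicates 1 and 3 and to between 2445 and 2687 RPKM in the other libraries.

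Of the 39 *Hox* genes in the annotation, 18 were listed, with 5 from the Hoxa cluster, 8 from Hoxb, 2 from Hoxc and 3 from Hoxd. No *Hox* gene of group 9 or above was listed, and of groups 5 to 8 only *Hoxa5*, *Hoxc5* and *Hoxb5* to *Hoxb8* were. Levels are given as log2 RPKM, the base 2 logarithm of the reads on a gene divided by its length and by the library size, which can be compared between genes. The reads behind each member's value could be recovered as whole numbers, and are given where they were few. Because the tissue was whole, fewer cells that express a gene and less RNA per cell cannot be told apart.

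Among the anterior genes, groups 1 to 4, libraries of the same genotype mostly differed by less than for the posterior genes, although each of the 12 members spread more than the median gene did. *Hoxa2* was at 4.39, 4.15 and 4.01 in *Pax9*-null replicates 1, 2 and 3 and at 4.07, 4.20 and 4.47 in the wild-type replicates. Its lowest library was *Pax9*-null and its highest wild-type, with the other 4 interleaved. *Hoxa2* (chr6:52162417-52164831, minus strand) had 335 to 494 reads per library, more than any other *Hox* gene, and a log2 fold change of −0.065 (95% confidence interval −0.38 to 0.25).

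*Hoxb3*, the most abundant of the group 3 genes that act in the third arch and its glands, was at 0.41, 0.40 and 1.01 in *Pax9*-null and at 0.52, 0.69 and 1.27 in wild-type libraries. Replicate 3 was the highest of each genotype. Of the exon bases of *Hoxb3*, 52.9% are shared with the antisense gene *Hoxb3os*. Because reads were counted without strand, its level and its rank among the group 3 genes are uncertain. *Hoxa3*, whose loss is known to remove the thymus and the third arch artery, lay between −0.86 and −0.64 in *Pax9*-null and between −0.84 and −0.25 in wild-type libraries (log2 fold change −0.15, 95% confidence interval −0.72 to 0.41). The lowest of both genotypes were thus nearly level, and the sum over the 3 group 3 genes was between 3.15 and 4.30 RPKM in *Pax9*-null and between 3.09 and 5.13 RPKM in wild-type libraries. *Hoxd3* and *Hoxd4* share 62.8% and 52.3% of their exon bases with other genes, in the main with each other and *Gm28230* on the same strand. The levels of both are therefore uncertain too.

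*Hoxb4* (chr11:96318267-96321638, plus strand), the most abundant gene of group 4, was at 3.02, 3.16 and 3.16 in *Pax9*-null and at 2.66, 2.83 and 3.16 in wild-type libraries. With 206 to 288 reads per library it had the smallest spread of the *Hox* genes between libraries of the same genotype (residual SD 0.19). *Hoxb1*, which marks rhombomere 4 and the posterior endoderm, varied more. It was at 0.083, 1.78 and 0.21 in *Pax9*-null and at 0.94, 0.98 and 1.27 in wild-type libraries, so that *Pax9*-null replicate 2 lay above and the other *Pax9*-null replicates lay below all 3 wild-type libraries.

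The posterior genes, groups 5 to 8, differed between embryos of the same genotype by more than most genes did. *Hoxa5*, the most abundant of them and a gene of the caudal pharynx and the lung, was at 1.70, 2.95 and 2.13 in *Pax9*-null and at 2.95, 1.98 and 2.34 in wild-type libraries. The highest *Pax9*-null and the highest wild-type library were equal to 2 decimals. *Hoxc5* was at 1.37, 2.43 and 1.69 in *Pax9*-null and at 2.57, 1.97 and 2.50 in wild-type libraries. It had a log2 fold change of −0.52 (95% confidence interval −1.18 to 0.14, limma adjusted *P*=0.230).

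The posterior genes of the Hoxb cluster lie next to one another on chromosome 11, and were each lowest in the same library. *Hoxb5* (chr11:96303336-96306121) was at −1.06, 0.76 and −0.48 in *Pax9*-null and at 1.04, −0.13 and 0.060 in wild-type libraries. *Hoxb6* (chr11:96292476-96301569) was at −3.94, 1.22 and −0.57 in *Pax9*-null and at 0.47, −0.045 and 1.32 in wild-type libraries. These levels rest on 1, 52 and 15 reads and on 34, 23 and 61 reads. *Pax9*-null replicate 1 was nearly without *Hoxb6*, whereas replicate 2 of the same genotype was above 2 of the 3 wild-type libraries.

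*Hoxb7* (chr11:96286623-96290162) was at −2.85, 1.19 and 0.49 in *Pax9*-null and at 0.86, −1.0 and 0.39 in wild-type libraries, from 2, 40 and 25 reads and from 35, 9 and 25 reads. Its highest library and its lowest were both *Pax9*-null. *Hoxb8* (chr11:96281905-96285315) was listed at −5.99, −0.57 and −2.78 in *Pax9*-null and at −0.64, −2.32 and −0.92 in wild-type libraries. The lowest of these values stands for 0 reads, which allows up to 3 reads, and the other libraries had 20 and 4 reads and 21, 6 and 17 reads. With a mean of 0.37 RPKM *Hoxb8* was below the level at which genes were tested. *Pax9*-null replicate 1 was the lowest library for all 6 genes of groups 5 to 8, and for 4 of the 12 genes of groups 1 to 4.

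**Figure D1:**
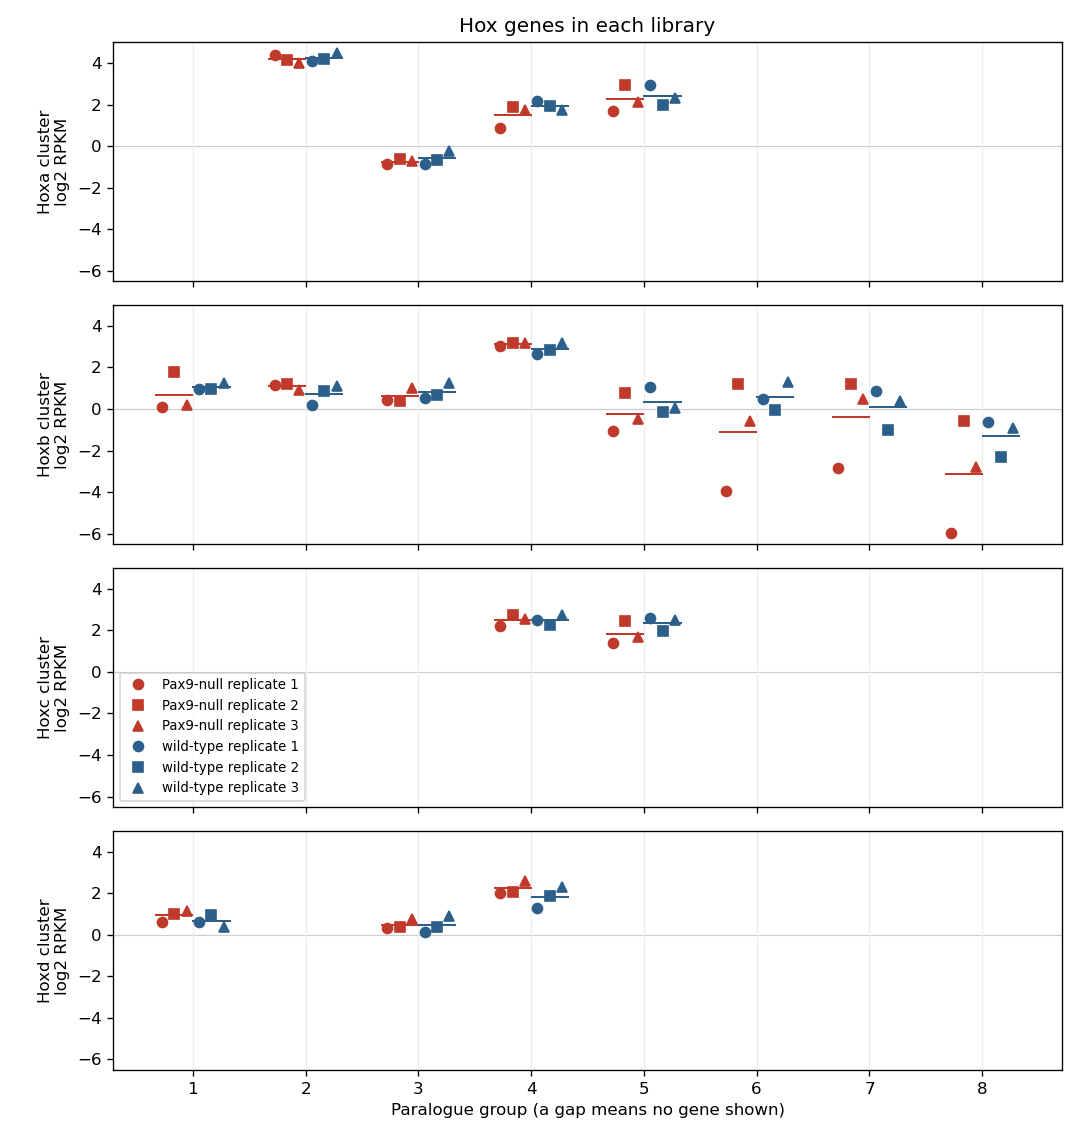
Level of listed *Hox* genes in each library, as log2 RPKM (y axis) by paralogue group (x axis), with a panel for each cluster. Circles, squares and triangles are replicates 1, 2 and 3, red is *Pax9*-null, blue is wild-type, and bars are the means of the 3 libraries. The points of groups 1 to 4 mostly spread less, with *Hoxb1* the widest of them, and those of *Hoxb6* to *Hoxb8* spread over several log2 units, with *Pax9*-null replicate 1 lowest.

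The spread between libraries was measured as the residual SD of the log2 level after the genotype was fitted. Its median over the 13547 tested genes was 0.18, and over the 24 tested members it was 0.31, with 20 of them above the median of all genes. All 12 genes of groups 1 to 4 were above it, at 0.19 to 0.68, and the 5 tested genes of groups 5 to 7 were at 0.45 to 1.91. *Hoxb6* had a residual SD of 1.91 and *Hoxb7* of 1.67, and only 0.229% and 0.376% of tested genes had a larger one. *Hoxb5* (0.79), *Hoxb1* (0.68) and *Hoxa5* (0.57) followed, exceeded by 1.87%, 2.76% and 4.80% of tested genes. Genes of low level spread more, and these genes were low. The 2913 tested genes with a mean under 2 RPKM had a median residual SD of 0.31, and 0.343%, 0.481% and 3.47% of them were above *Hoxb6*, *Hoxb7* and *Hoxb5*. At the other end, *Pbx2* (0.057), *Meis2* (0.089), *Pbx3* (0.096) and *Meis1* (0.11) were among the more even genes of the table, with at least 77.0% of tested genes above each.

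**Figure D2:**
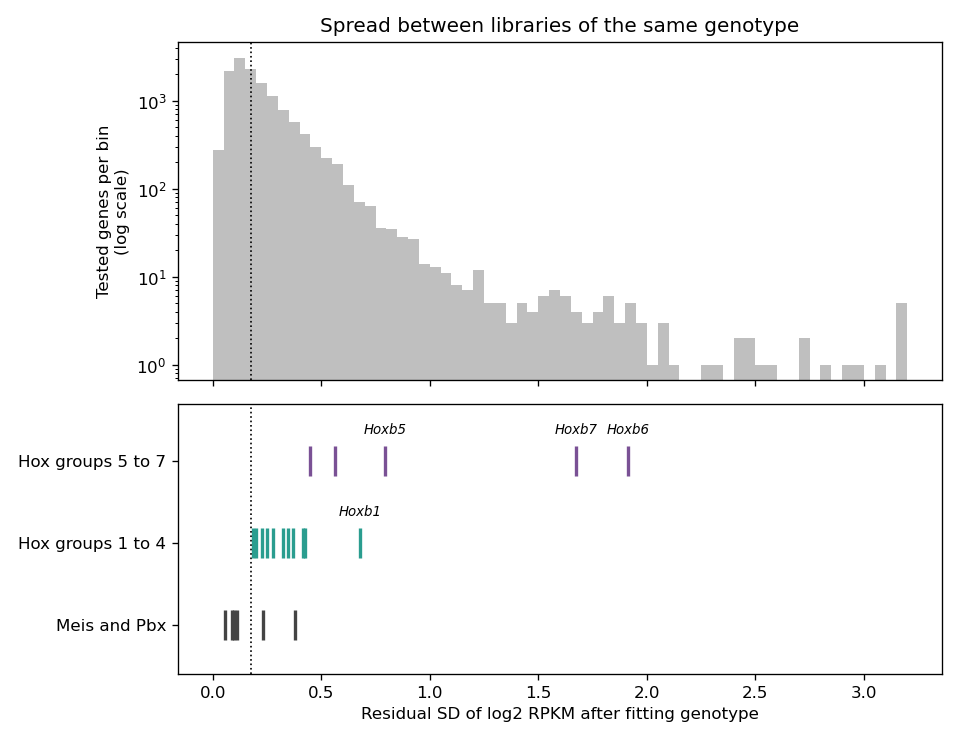
Residual SD of log2 RPKM between libraries of the same genotype (x axis). Grey bars count the tested genes per bin on a log scale, with all genes above 3.15 in the last bin, coloured ticks are the tested members, and the dotted line is the median of all tested genes (0.18). *Hoxb6* and *Hoxb7* lie in the far right tail, and Meis and Pbx genes lie on both sides of the line.

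To put the posterior genes on a scale that does not depend on how libraries were scaled against each other, the share of *Hox* reads that came from groups 5 to 8 was taken within each library. It was 10.9% in *Pax9*-null replicate 1 (180 of 1644 reads, 95% Clopper-Pearson interval 9.48 to 12.6), 23.8% in replicate 2 (22.0 to 25.6) and 14.6% in replicate 3 (13.1 to 16.3). In wild-type replicates 1, 2 and 3 it was 28.4% (26.5 to 30.4), 16.1% (14.5 to 17.8) and 20.0% (18.4 to 21.7). The intervals cover counting error only, and those of the lowest and the highest library of each genotype were far apart. From low to high the libraries stood as *Pax9*-null 1, *Pax9*-null 3, wild-type 2, wild-type 3, *Pax9*-null 2 and wild-type 1, with the genotypes interleaved. Of these neighbours, *Pax9*-null 3 and wild-type 2 had overlapping intervals. By RPKM in place of reads, the mean share was 16.9% ± 6.96 (SD, *n*=3) for *Pax9*-null libraries, and for wild-type libraries 21.4% ± 6.27 (SD, *n*=3), a difference smaller than the SD of either genotype.

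Wild-type replicate 1 stood at the high end when each cluster was taken alone, and the low end varied. In the Hoxb cluster the share was 4.07% (2.43 to 6.36) in *Pax9*-null replicate 1, 24.6% and 12.3% in the other *Pax9*-null replicates, and 29.4%, 13.5% and 19.4% in the wild-type replicates. In the Hoxa cluster, where *Hoxa5* is the only listed gene of these groups, it was 9.42%, 18.6% and 13.1% in *Pax9*-null and 20.8%, 10.5% and 12.9% in wild-type libraries. *Hoxc5* gave 40.5%, 49.6% and 39.7% of the reads of its cluster in *Pax9*-null and 56.1%, 49.3% and 50.8% in wild-type libraries. Wild-type replicate 1 thus had the highest share in all 3 clusters with a listed posterior gene. *Pax9*-null replicate 1 had the lowest share in the Hoxa and Hoxb clusters, and the second lowest in the Hoxc cluster, after *Pax9*-null replicate 3. A share also depends on the anterior genes, and the summed RPKM of groups 1 to 4 was lowest in wild-type replicate 1. The summed RPKM of groups 5 to 8 was highest in *Pax9*-null replicate 2 (20.06), with wild-type replicate 1 next (19.55). The clusters lie on different chromosomes but were read from the same libraries.

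**Figure D3:**
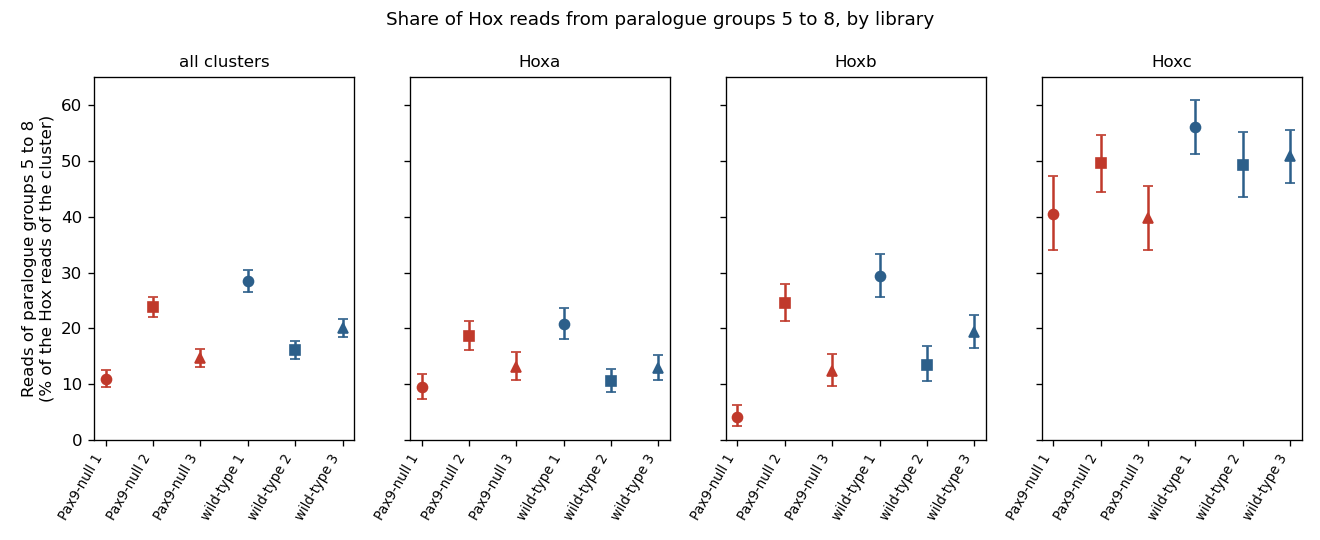
Percent of the *Hox* reads of a library that came from paralogue groups 5 to 8 (y axis) in each of the 6 libraries (x axis), for all clusters together and for the Hoxa, Hoxb and Hoxc clusters. Bars are 95% Clopper-Pearson intervals, red is *Pax9*-null and blue is wild-type. Wild-type 1 is highest in every panel, and the genotypes interleave in the panel of all clusters.

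Other values differed between the libraries at the ends of this order. The erythroid markers were highest in *Pax9*-null replicates 1 and 3 (5006 and 4554 RPKM), the libraries with the lowest shares of posterior *Hox* reads, and lowest in wild-type replicate 1 (2445 RPKM), which had the highest. *Aldh1a2*, which makes the retinoic acid that activates *Hox* genes along the trunk, was at 3.36, 4.85 and 4.38 in *Pax9*-null and at 4.64, 4.52 and 4.19 in wild-type libraries. It was again lowest in *Pax9*-null replicate 1, but its order otherwise was not that of the shares. The neural tube genes named above, *Tubb3* apart, were lowest in wild-type replicate 1. Of the 4 forelimb and lateral plate markers, *Tbx5* (2.46), *Fgf10* (1.52) and *Lmx1b* (0.89) were highest there, the last at −1.41 to −0.37 log2 RPKM in the other libraries, whereas *Prrx2*, the most abundant, was highest in *Pax9*-null replicate 3 (4.53). Their sum, mostly *Prrx2*, ran from 22.8 to 26.6 RPKM in *Pax9*-null and from 22.8 to 28.5 RPKM in wild-type libraries, and the 7 listed of 10 somite and presomitic markers from 56.8 to 69.0 and from 57.4 to 65.6 RPKM. The part of any of these in the *Hox* values was not tested.

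*Pax9*-null and wild-type embryos were then compared for each member. None of the 24 tested members was called at a limma adjusted *P* of at most 0.1, whereas 26.7% of all tested genes were, 14.7% with a higher and 12% with a lower level in the mutant. By an unadjusted *P* under 0.05 the count was 1 of 24, against 35.1% of tested genes. In none of the 25 members did the 3 libraries of one genotype lie wholly above those of the other, which was so for 41.9% of tested genes. An exact two-sided permutation test over the 6 libraries can reach 0.1 at best for any gene, and the smallest *P* among the members was 0.2.

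The 12 genes of groups 1 to 4 were evenly divided, 6 with a positive and 6 with a negative log2 fold change, and had a median of −0.0047, beside −0.0012 over all tested genes. They ran from −0.45 for *Hoxa4* to 0.42 for *Hoxd4*. The 5 tested genes of groups 5 to 7 all had negative values, from −0.16 for *Hoxa5* to −1.68 for *Hoxb6*, with a median of −0.52. Their confidence intervals were wide. That of *Hoxb6* ran from −4.32 to 0.96 (limma adjusted *P*=0.321), and so did not exclude a large decrease. That of *Hoxb7*, at −0.47, ran from −2.79 to 1.85 (limma adjusted *P*=0.765), and did not exclude a large change in either direction. Without *Pax9*-null replicate 1 the median of these 5 genes was −0.18, and *Hoxb7* (0.76) and *Hoxa5* (0.12) were positive. Without *Pax9*-null replicate 2, on the other hand, the median was −1.09 and 4 members were called lower, *Hoxb1*, *Hoxb6* and *Hoxc5* among them.

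**Figure D4:**
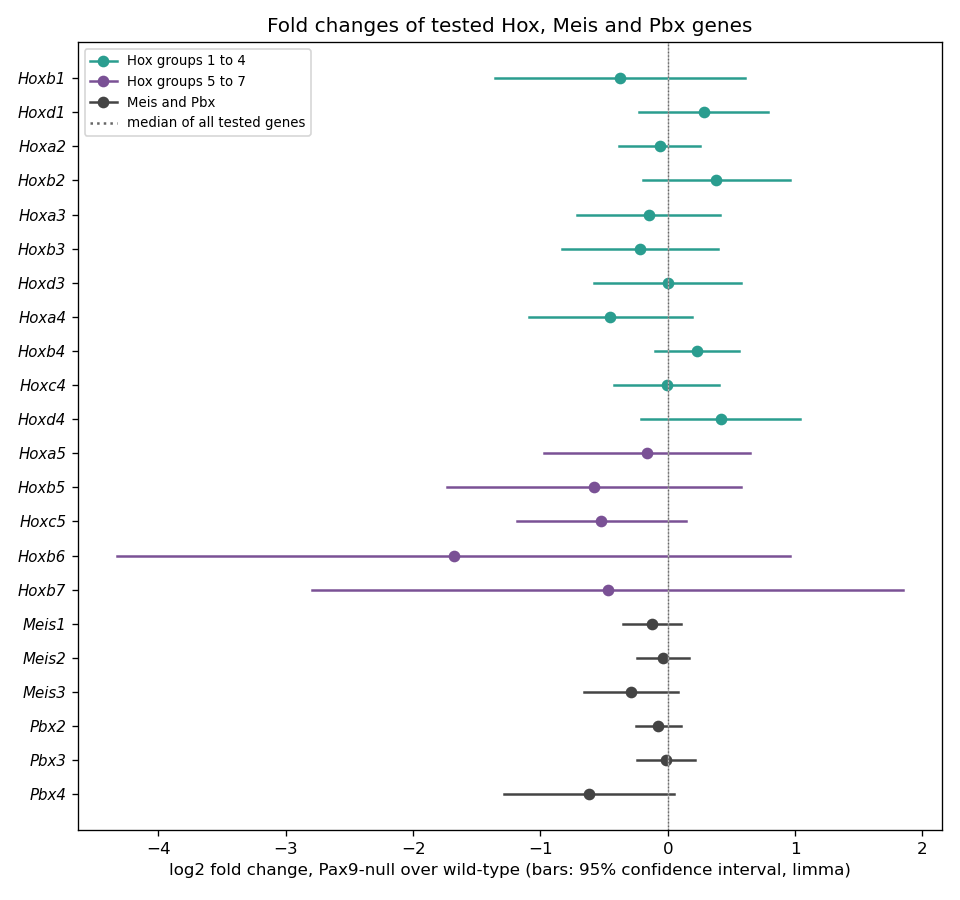
Log2 fold change of tested members, *Pax9*-null over wild-type (x axis), with 95% confidence intervals from limma. Teal marks *Hox* groups 1 to 4, purple groups 5 to 7 and dark grey the Meis and Pbx genes, and the dotted line is the median of all tested genes (−0.0012). All intervals shown include 0, and those of *Hoxb6* and *Hoxb7* are the widest.

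Apart from *Pbx4*, the cofactor genes had higher mean levels than every *Hox* gene other than *Hoxa2*, on the RPKM scale. *Pbx2* was the most abundant, at 5.55, 5.60 and 5.65 in *Pax9*-null and at 5.61, 5.66 and 5.74 in wild-type libraries. Its log2 fold change was −0.073 (95% confidence interval −0.25 to 0.11). *Meis2*, which is expressed in neural crest and heart outflow tissue, was at 4.34, 4.39 and 4.18 in *Pax9*-null and at 4.41, 4.28 and 4.33 in wild-type libraries. *Meis1* was at 3.97, 4.16 and 3.86 in *Pax9*-null and at 4.17, 4.08 and 4.12 in wild-type libraries. The libraries of both genotypes overlapped for both genes, and the intervals of their log2 fold changes ran from −0.25 to 0.17 for *Meis2* and from −0.36 to 0.10 for *Meis1*.

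*Meis3*, a gene of the hindbrain, was at 3.57, 3.40 and 3.75 in *Pax9*-null and at 3.54, 4.0 and 4.05 in wild-type libraries (log2 fold change −0.29 ± 0.16 (SE), limma adjusted *P*=0.229). Wild-type replicate 1 alone lay among the *Pax9*-null libraries.

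*Pbx3* was at 3.56, 3.60 and 3.37 in *Pax9*-null and at 3.56, 3.47 and 3.53 in wild-type libraries, with a log2 fold change of −0.013 (95% confidence interval −0.24 to 0.21). *Pbx4*, the least abundant cofactor gene with 13 to 39 reads per library, was at −0.13, −0.92 and −0.49 in *Pax9*-null and at −0.20, 0.0066 and 0.50 in wild-type libraries (log2 fold change −0.62, limma adjusted *P*=0.169). All 7 Meis and Pbx genes had negative fold changes, with a median of −0.13, but 1 of them was positive after centring each library on its median or with library weights, and 3 were with the length and GC trends taken out, where the median was −0.054. Summed over the 3 genes, Meis levels were 47.8, 49.3 and 46.1 RPKM in *Pax9*-null and 50.8, 52.3 and 54.1 RPKM in wild-type libraries. On the deposited scaling the sum was lower in each *Pax9*-null than in each wild-type library, which is given as a description. Singly, each of the 3 genes overlapped between genotypes, and *Meis3* had the largest decrease of them. Among single tested genes, 41.9% had no overlap between genotypes. The library sizes also separated by genotype, and their part in this sum was not tested.

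**Figure D5:**
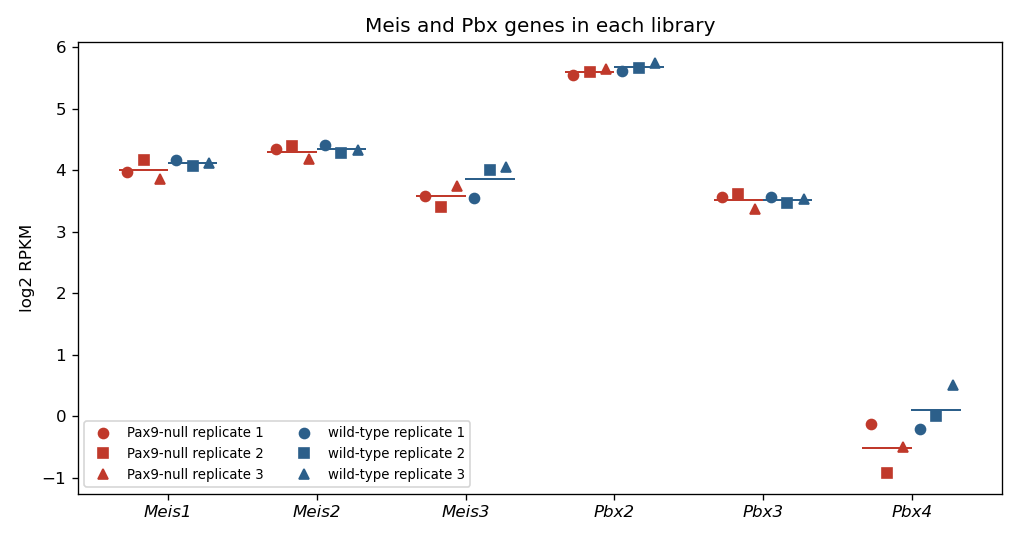
Level of Meis and Pbx genes in each library, as log2 RPKM (y axis). Circles, squares and triangles are replicates 1, 2 and 3, red is *Pax9*-null, blue is wild-type, and bars are means. The libraries of the genotypes overlap for all genes shown, and among the abundant ones *Meis3* shows the means furthest apart.

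Genes that act with or on the *Hox* genes were described by the same test. Of the 10 listed of 11 other TALE homeobox genes, which include the Meis relatives *Pknox1* and *Pknox2* and the Irx genes, none was called, with a median log2 fold change of −0.029. Of 14 upstream regulators of *Hox* expression, 11 were listed and 1 was called. This was *Rara*, a receptor for retinoic acid, at 2.22, 2.88 and 2.35 in *Pax9*-null and at 3.03, 3.11 and 3.14 in wild-type libraries. All 3 *Pax9*-null libraries were lower (log2 fold change −0.61, limma adjusted *P*=0.0601), although the call was lost without *Pax9*-null replicate 1 (0.203) or 3 (0.163) or wild-type replicate 3 (0.113), and with the length and GC trends taken out (0.326). *Rarb*, another retinoic acid receptor, was at 4.27, 4.40 and 4.42 in *Pax9*-null and at 4.33, 4.19 and 4.24 in wild-type libraries, and was not called.

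Of the 14 chromatin regulators of *Hox* clusters, 3 were called higher and 4 lower. Those higher were *Rnf2* (0.38), a ubiquitin ligase of Polycomb complex 1, and *Eed* (0.29) and *Suz12* (0.31), subunits of the Polycomb complex that methylates histone H3. Those lower were *Kat6a* (−0.73), a histone acetyltransferase, *Kmt2a* (−0.57), the trithorax-type methyltransferase that maintains *Hox* expression, and the Polycomb genes *Phc1* (−0.68) and *Cbx2* (−0.44). Repressors were thus called in both directions, and the share called, 7 of 14, stands beside 26.7% of all tested genes. None of the 14 was called with the length and GC trends taken out, or without *Pax9*-null replicate 1 or 3, and quantile normalization left the 4 lower calls alone. Of 17 noncoding and Evx genes of the clusters, 5 were listed and none was called. *Hotairm1*, a noncoding transcript of the Hoxa cluster, was between 1.31 and 1.98 in *Pax9*-null and between 1.49 and 1.78 in wild-type libraries.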

How the data were processed

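Embryos were grouped by the genotype in the sample labels. The authors trimmed adaptors with Trimmomatic 0.32, kept unique and non-redundant reads, sub-sampled libraries towards the smallest, aligned reads to GRCm38 with STAR (2.5.1a in the submitters' processing notes, another release in the methods) and counted them with featureCounts 1.5.1, without regard to strand. The methods describe whole dissected tissue and strand-specific libraries, and are followed here, although the labels name sorted cells and another kit. The deposited values are log2 RPKM per gene and library. Reads behind each member's value were recovered as whole numbers at its GENCODE M21 exon length, with a prior of 0.5 reads (82.7% of all values in the table were whole within 0.05 read).

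limma 3.58.1 in R 4.3.3 was run on the deposited log2 values as a two-sided test in which the variance followed the mean level. It covered the 13547 genes that averaged 0.5 RPKM or more, and all of these entered the Benjamini-Hochberg adjustment. A gene was called when its adjusted *P* did not exceed 0.1. The scripts were tested on simulated data. Fold changes set *Pax9*-null against wild-type, so that negative values are lower in the mutant. Values in every library are given for the most abundant member of each paralogue group and for Meis and Pbx genes. Results for 2 members are not reported here singly, and enter counts, sums and fits only. *Hoxb1*, *Hoxb5* and *Hoxc5* were added after their values were seen, as were *Aldh1a2*, *Rarb*, *Hotairm1* and the markers named from the other lists, and the comparison with genes under 2 RPKM was chosen at the same point. The members and gene lists were chosen with earlier results of these data known. Alternatives changed the prior, filter, scaling, variance model, threshold or replicate term, or left out a library.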

Additional observations from a re-analysis of the deposited data

How the results depend on the processing

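Of the 24 tested members, none was called with the prior, median centring, quantile normalization, length and GC, variance trend or 0.05 threshold alternatives, or with no filter. With a mean of at least 5 RPKM, which leaves 11 members, 1 was called, and with library weights 2 were (*Meis3* among them). Leaving out a library in turn gave between 0 and 4 calls. There were 4 without *Pax9*-null replicate 2 (*Hoxb1*, *Hoxb6* and *Hoxc5* among them), 1 without wild-type replicate 1 (*Meis3*) and 1 without wild-type replicate 2. The calls over all genes moved far more, from 3611 to 421 with length and GC trends removed, and to 301 or 175 without *Pax9*-null replicate 1 or 3. Same-numbered libraries deviated from their group means with correlations of −0.020, −0.17 and 0.26. The largest of all pairs was 0.36, for *Pax9*-null replicate 2 with wild-type replicate 1. With so few libraries a genotype, these values cannot settle whether replicate numbers paired the embryos. A replicate block called 0 members, and 1377 of all genes.

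The median of the Meis and Pbx genes was −0.20 after quantile normalization, −0.054 with length and GC trends removed, and between −0.20 and −0.096 with a library left out. That of *Hox* groups 5 to 7 was between −1.09 and −0.18 with a library left out. Without *Hoxa2* the posterior share by RPKM was higher in every library, since *Hoxa2* counts only in the whole. It was 16.5%, 31.2% and 20.3% in *Pax9*-null replicates 1, 2 and 3, from 10.8%, 24.5% and 15.5%. In the wild-type replicates it was 37.1%, 21.7% and 28.1%, from 28.1%, 15.7% and 20.3%, and the libraries kept their order. Of 339 alternative values of single genes, 28 changed sign, in 10 genes, none of them called, and the cause was not tested. With length and GC trends removed these were *Hoxa3* (0.042), *Hoxb3* (0.080), *Meis2* (0.16), *Pbx2* (0.15) and *Pbx3* (0.026). *Hoxc4* was 0.026 after median centring and after quantile normalization, and *Pbx3* 0.022 after median centring and 0.0024 with library weights. *Hoxd3*, near 0 as reported, was −0.0014 and −0.0058 with priors of 0.1 and 1, −0.018 after quantile normalization and −0.16 with library weights. With a library left out the ranges were −0.17 to 0.046 for *Hoxa2*, −0.28 to 0.018 for *Hoxa3*, −0.51 to 0.12 for *Hoxa5*, −0.42 to 0.0022 for *Hoxb3*, −1.26 to 0.76 for *Hoxb7*, −0.13 to 0.14 for *Hoxc4*, −0.17 to 0.22 for *Hoxd3*, −0.080 to 0.024 for *Meis2* and −0.061 to 0.059 for *Pbx3*.

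Few reads limit the posterior Hoxb genes, with at most 72 in any library, and 3 embryos a genotype limit every comparison.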
